A study of Homo sapiens with 6 samples.

Results

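The E2F transcription factors and their DP partners comprised 10 genes in these data, E2F1 to E2F8 together with TFDP1 and TFDP2, out of 47577 loci in the table. The members were chosen by gene symbol as a family, and the family was picked with the THZ531 values already in view, because E2F5 was among the strongest decreases. Their differences between treatments are therefore given as a description, without a test. OVCAR3 cells, an established line derived from a high-grade serous ovarian adenocarcinoma (HGSOC), were treated for 6 h with DMSO, the solvent control, or with 200 nM THZ531, a covalent inhibitor of CDK12 and CDK13, the kinases that phosphorylate the C-terminal domain of RNA polymerase II. PolyA plus RNA was sequenced from 3 biological repeats of each treatment. The sample titles name THZ531, whereas a protocol field of the labels gives THZ1, also at 200 nM, and the samples were assigned by title. All libraries came from the same cell line, so the values describe a single genetic background.

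E2F proteins bind DNA as heterodimers with a DP protein, apart from the atypical members, which bind without a DP partner. In resting cells the pocket proteins of the retinoblastoma family hold E2F in check. Cyclin-dependent kinases phosphorylate the pocket proteins in late G1, and the released E2F drives genes for DNA replication. Inactivation of the retinoblastoma pathway is common in HGSOC, and OVCAR3 is known for amplification of CCNE1, which encodes cyclin E1.

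Between 53054048 and 70986130 reads were counted on genes per library. The deposited values are read counts divided by a DESeq2 size factor and are called normalized reads here. A locus was taken as expressed with at least 10 normalized reads in at least 3 libraries, and 17568 of the 47577 loci, among them all 10 E2F and DP genes, passed this minimum. Markers of serous ovarian carcinoma were present, with KRT7, KRT8, KRT18, EPCAM, MUC16, MSLN, WT1 and PAX8 all expressed. Their summed level was 436915 to 447836 normalized reads in DMSO and 556080 to 568807 in THZ531, and most of this sum came from KRT7, KRT8 and KRT18. Only PAX8, a lineage transcription factor, passed the thresholds given below among the 8 markers (-3.18 on the log2 scale, limma, adjusted p = 4.6e-15). MUC16 (-0.46) and WT1 (-0.175, with overlapping libraries) were also lower, and 5 of the 8 markers had a log2 fold change above 0. Of 9 markers of immune, endothelial and fibroblast cells, CD3E was listed at 0 in every library, and DCN and LUM did not exceed 3.19. The summed level of the 9 was 1285 to 1396 in DMSO and 2450 to 2736 in THZ531, with COL1A1 and VWF called higher. COL1A1 made up most of this sum, with a mean of 995.5 in DMSO and 2190 in THZ531. On the log2 scale PTPRC (-0.39), PECAM1 (-0.16), CD14 (0.01) and COL1A2 (0.545) were not called. VWF was under the fold threshold with the same total (0.49) and RPL34 (0.24). The part of these markers in the values below was not tested. The drug targets themselves gave log2 fold changes of 0.39 for CDK12 and -0.02 for CDK13, and a kinase inhibitor need not alter the mRNA of its target.

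Sequences of the family's own promoters are shown first, because several E2F genes are known to be regulated by E2F proteins. RefSeq promoter windows (GRCh38.p14, 250 bases before to 50 bases after a start) were matched for 8 of the 10 genes, in 11 windows. They were searched on both strands for 4 words of the E2F consensus, TTTCCCGC, TTTCGCGC, TTTGCCGC and TTTGGCGC. A word was found in the windows of E2F1, E2F2, E2F3 and TFDP1, that is in 4 of 11 windows (36.4%), compared with 1164 of all 35116 windows (3.31%), and none was found in those of E2F4, E2F6, E2F7 and TFDP2. A match is a string of letters and not evidence of binding. Each sequence is written 5′ to 3′ on the strand of its gene, with the E2F word in capitals, and the E2F1 window held 2 words that lie close together.
E2F1, chr20:33686401-33686428, minus strand, 33 bases before the start: tggctctttcGCGGCAAAaaggatttgg
E2F1, chr20:33686388-33686415, minus strand, 20 bases before the start: gcaaaaaggaTTTGGCGCgtaaaagtgg
E2F2, chr1:23531258-23531285, minus strand, 42 bases before the start: cggcacgacgTTTGGCGCtaaaaaaaaa
E2F3, chr6:20401816-20401843, plus strand, 53 bases before the start: tgaaaagccgGCGGGAAAtccgagtttc
TFDP1, chr13:113584623-113584650, plus strand, 120 bases before the start: ggcgccgaagGCGCGAAAaggcgcgcag

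After 6 h of THZ531 the family divided into E2F5, which was far lower, E2F8 and E2F3, which were moderately lower, and the other members, which differed little. E2F5 was 27.0-fold lower, E2F8 2.54-fold and E2F3 1.82-fold. Fold changes are differences of group means of log2(normalized reads + 1), THZ531 minus DMSO, and this scale understates the change of low genes. These 3 of 10 members were lower by 1.5-fold or more, a size reached downward by 26.4% of all expressed loci, and no member was higher by that size. In 6 of 10 members (E2F1, E2F3, E2F4, E2F5, E2F8 and TFDP1) all THZ531 libraries lay below all DMSO libraries, whereas the groups did not overlap, in either direction, for 71.7% of expressed loci. Because bulk RNA was measured, fewer transcripts per cell and fewer cells with the transcript cannot be told apart.

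**Figure D1:**
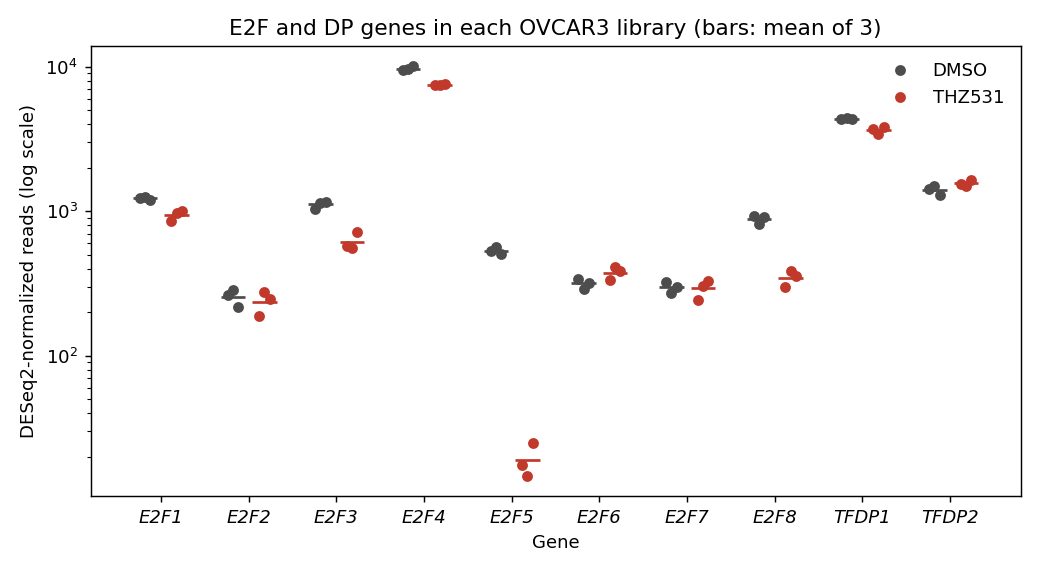
Normalized reads (log axis) of the 10 E2F and DP genes in each library, DMSO in grey and THZ531 in red, with a bar at the mean of 3 libraries. E2F5 lies between 504 and 567 in DMSO and between 14.8 and 25.03 in THZ531, while E2F2, E2F6, E2F7 and TFDP2 overlap between the treatments.

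Among the activators, E2F1 promotes entry into S phase and can also induce apoptosis genes. E2F1 (chr20:33675477-33686404, hg38, as are all positions) had 1230.5, 1252 and 1199 normalized reads in the DMSO libraries (replicates 1, 2 and 3, the order used throughout) and 853, 963 and 999 in the THZ531 libraries. Every THZ531 library was below every DMSO library, and the log2 fold change was -0.39 (SE 0.07).

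E2F2 (chr1:23506428-23531233), the least abundant activator, had 263, 285 and 218 normalized reads in DMSO and 188, 275 and 247 in THZ531. The treatments overlapped, with the lowest library in THZ531 and the highest in DMSO. Its log2 fold change of -0.12 (SE 0.16) was smaller than its error, and it ranged from -0.24 to 0.04 when single libraries were left out.

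E2F3 (chr6:20401879-20493714) encodes an activator that is amplified in some carcinomas. It had 1028, 1142 and 1163 normalized reads in DMSO and 570.5, 557 and 712 in THZ531. The groups were well separated, with the highest THZ531 library below the lowest DMSO library, and the log2 fold change was -0.86 (SE 0.09). The first intron of its MANE transcript spans 77220 bases, the longest first intron in the family, whereas that of E2F1 spans 5587 bases.

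E2F4 and E2F5 are the canonical repressors, which occupy promoters with the pocket proteins p107 and p130 in resting cells. E2F4 (chr16:67192155-67198918) had 9410.1, 9622 and 10016 normalized reads in DMSO and 7423, 7498 and 7513 in THZ531. All THZ531 libraries were lower, and close to each other. The log2 fold change of E2F4 was -0.37 (SE 0.04).

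E2F5 (chr8:85177154-85217158) differed most. It had 526, 567 and 504 normalized reads in DMSO and 17.6, 14.8 and 25.03 in THZ531, from 662, 611 and 632 reads and from 14, 13 and 22 reads. No library came near those of the other treatment. The mean was 532 ± 31.9 (SD, n = 3) in DMSO and 19.15 ± 5.29 (SD, n = 3) in THZ531, a difference of -4.76 (SE 0.22) on the log2 scale, which ranked 12 from the lowest of the 17568 expressed loci. Summed over libraries, 1905 reads stood against 49, a ratio of 27.6 after normalization. With so few reads left, the log2 fold change moved with the pseudocount, to -4.23 with a pseudocount of 10, and leaving out single libraries gave -4.96 to -4.60. Over its 8 MANE exons and 37365 bases, E2F5 has a first intron of 24492 bases.

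The 5 genes whose profile over the 6 libraries lay nearest to that of E2F5, by Euclidean distance of log2 values from the DMSO mean, were HOMEZ (0.73), CHN2 (0.92), ATP6V0E2-AS1 (1.11), LOC103344931 (1.26) and LINC00663 (1.28). Their log2 fold changes were between -4.52 and -4.32, a likeness set by how these genes were picked. All but HOMEZ reached the minimum for expression only through the DMSO libraries. In THZ531, ATP6V0E2-AS1 had 0, 0 and 2 reads and LINC00663 had 1, 0 and 0. There the pseudocount limits the log2 fold change, which was -5.15 and -5.835 with edgeR on whole reads. HOMEZ, a homeobox and leucine zipper gene, was the most abundant of the 5 genes. It had 793 ± 27.8 normalized reads in DMSO and 34.2 ± 7.87 in THZ531 (SD, n = 3).

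E2F6 represses without a pocket protein, as part of the variant Polycomb complex PRC1.6. E2F6 (chr2:11444375-11466161) had 338, 290.4 and 320.0 normalized reads in DMSO and 334, 408 and 383 in THZ531. Only THZ531 replicate 1 fell within the DMSO range, and the log2 fold change was 0.24 (SE 0.12).

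E2F7 and E2F8 are the atypical repressors, which act together to limit E2F1 and its targets late in S phase. E2F7 (chr12:77021247-77065569) had 324, 272 and 297 normalized reads in DMSO and 243, 303.5 and 329 in THZ531, and the THZ531 libraries reached both above and below those of DMSO. Its log2 fold change was -0.04 (SE 0.13), with a range from -0.13 to 0.09 when single libraries were left out.

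E2F8 (chr11:19224063-19241655) had 926, 808 and 906 normalized reads in DMSO and 299.8, 386.5 and 355 in THZ531. The lowest DMSO library exceeded the highest THZ531 library by a wide margin, and the log2 fold change was -1.35 (SE 0.10). Unlike E2F5 and E2F3, E2F8 has a short first intron of 317 bases and a longest intron of 3589 bases. TFDP2, with a log2 fold change of 0.15, has a first intron of 47341 bases and a longest intron of 87516 bases. Whether intron length bears on the change was not tested.

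TFDP1 and TFDP2 encode the DP proteins, which E2F1 to E2F6 need to bind DNA. TFDP1 (chr13:113584688-113641473) had 4331, 4381 and 4359.7 normalized reads in DMSO and 3719, 3394 and 3804 in THZ531, without overlap, and its log2 fold change was -0.26 (SE 0.05). TFDP2 (chr3:141944428-142149544) had 1417, 1502 and 1283 in DMSO and 1531.5, 1488 and 1642 in THZ531. The TFDP2 libraries overlapped, and the log2 fold change was 0.15 (SE 0.07). TFDP3, a DP gene of the X chromosome that is not among the 10, was listed at 0 in all libraries.

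How the libraries are put on a common scale bears on the small differences. Scaled to the same total, the median log2 fold change of all expressed loci was -0.25, and scaled to RPL34, the reference of the study's qPCR, it was -0.50, compared with -0.01 as deposited. All members shift along with this median, so that E2F1 read -0.63 and -0.88 under these scalings, and TFDP2 turned to -0.09 and -0.34. E2F6 read 0.00 and -0.25. Members lower by 1.5-fold or more then numbered 5 and 7.

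**Figure D2:**
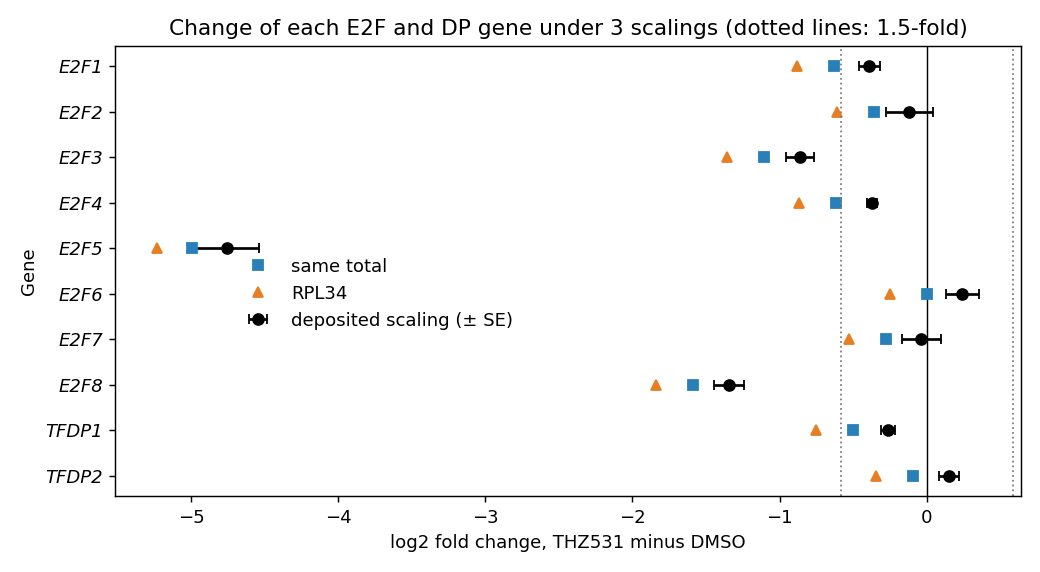
Log2 fold change (THZ531 minus DMSO) of each E2F and DP gene with the deposited scaling (black, ± SE), the same total (blue) and RPL34 (orange), with dotted lines at 1.5-fold. E2F5, E2F8 and E2F3 lie left of the lower line under each scaling, and E2F6 and TFDP2 lie right of 0 with the deposited scaling and left of it with RPL34.

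Levels were compared between genes as normalized reads per kb of MANE exons. In DMSO, E2F4 was the most abundant E2F gene, at 4589 ± 146 per kb, followed by TFDP1 at 1651, E2F1 at 456, E2F5 at 271, E2F8 at 237.5, E2F3 at 221, TFDP2 at 142, E2F6 at 97.9, E2F7 at 52.0 and E2F2 at 49.1. E2F8 overlapped E2F3 and E2F7 overlapped E2F2 in this order, and no other neighbours overlapped. In THZ531, E2F5 moved from place 4 to place 10, at 9.75 per kb, and E2F8 from place 5 to place 7, at 93.7 per kb. Among neighbours in THZ531, E2F3 overlapped E2F6, E2F6 overlapped E2F8, and E2F7 overlapped E2F2.

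Ratios between members within a library do not depend on the scaling. Per 100 E2F4 transcript reads per kb there were 6.00, 6.33 and 5.41 of E2F5 in the DMSO libraries and 0.255, 0.212 and 0.358 in the THZ531 libraries, so that E2F5 was lower relative to E2F4 in every treated library than in any DMSO library. The level of E2F8 per 100 of its partner E2F7 was 457.5 ± 15.2 in DMSO and 185 ± 15.8 in THZ531 (SD, n = 3). For the DP proteins, TFDP1 per 100 TFDP2 was 1169 ± 92.9 in DMSO and 877 ± 28.8 in THZ531, and the libraries did not overlap. E2F1 per 100 E2F4 was 9.95 ± 0.48 in DMSO and 9.84 ± 0.74 in THZ531, with overlapping libraries.

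As a share of the summed E2F level per kb, the activators made up 12.2% ± 0.4 in DMSO and 11.9% ± 0.84 in THZ531, which was within the spread between replicates. The canonical repressors together held 81.4% ± 0.51 and 82.1% ± 1.32. Within them E2F4 alone held 76.8% ± 0.7 and 81.9% ± 1.33, and the share of the atypical members was 4.85% ± 0.39 in DMSO and 3.34% ± 0.36 in THZ531. E2F6 held 1.64% ± 0.14 and 2.68% ± 0.22.

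Loci of the table that overlap a member were examined next, since reads of overlapping loci can be confused. Loci other than members were tested with limma over all expressed loci and called when the fold change reached 1.5 and the unadjusted p did not exceed 0.05. By this rule 39.5% of expressed loci were called, 23.9% lower and 15.7% higher with THZ531. Each test had 3 samples per group, and p-values are set against the spread between those samples. That spread was moderated by limma toward a trend over all expressed loci. Of 7 loci that overlap a member, 2 were expressed.

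RBIS, a ribosome biogenesis factor, lies on the minus strand (chr8:85214048-85220378) and overlaps the 3′ end of the E2F5 locus by 3111 bases. It had 3781, 3767 and 3565 normalized reads in DMSO and 4465, 4322 and 4188 in THZ531, all THZ531 libraries being higher. Its log2 fold change of 0.22 (limma, adjusted p = 3.4e-04) was under the fold threshold, so it was not called, and it turned to -0.02 (same total) and -0.27 (RPL34). Libraries were prepared with a stranded kit, but whether the counting used the strand is not given in the sources used here. If it did not, reads in the shared stretch cannot be assigned to E2F5 or RBIS.

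The other expressed locus carries no symbol and lies inside TFDP2 (chr3:141991095-141993020, 1926 bases). It is wholly within intron 6 of the 12 introns of the MANE transcript of TFDP2, starting 517 bases after the end of exon 6 and 156524 bases from the transcription start. Its normalized reads were 0, 0 and 1.596 in DMSO and 46.6, 34.1 and 31.9 in THZ531, from 0, 0 and 2 reads and from 37, 30 and 28 reads. Every THZ531 library had many reads, whereas the DMSO libraries had almost none. The normalized ratio was 66.8 and rests on 2 DMSO reads. The locus reached the minimum for expression only through the THZ531 libraries, so its direction was set by that minimum and no test is given. Over the same libraries TFDP2 itself overlapped between treatments, as given above. The strand of the locus is not listed, and 19 of the 20 nearest identifiers with a strand lie on the minus strand, that of TFDP2. Which transcript these reads came from was not tested.

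The bases at the start of this intron are shown to place the locus. They were read from hg38 on the minus strand, 5′ to 3′. In the junction, capitals mark the last 10 bases of exon 6. In the other sequences they mark AATAAA, the canonical polyadenylation signal, searched on the TFDP2 strand. There was no AATAAA between the exon and the locus, 2 in the locus and 20 in the whole intron of 14855 bases. Of all 1926-base windows of the intron, 96.0% hold at least 1, so its presence does not set this stretch apart.
exon 6 and intron 6 junction, chr3:141993518-141993547: TTTCAGAAAGgtgagtataagtctaactat
AATAAA at base 643 of the intron, chr3:141992878-141992907: tgttaagtaaaaAATAAAtgcctgccatgt
AATAAA at base 2415 of the intron, chr3:141991106-141991135: aaggaaataatcAATAAAatgtaacatgct

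**Figure D3:**
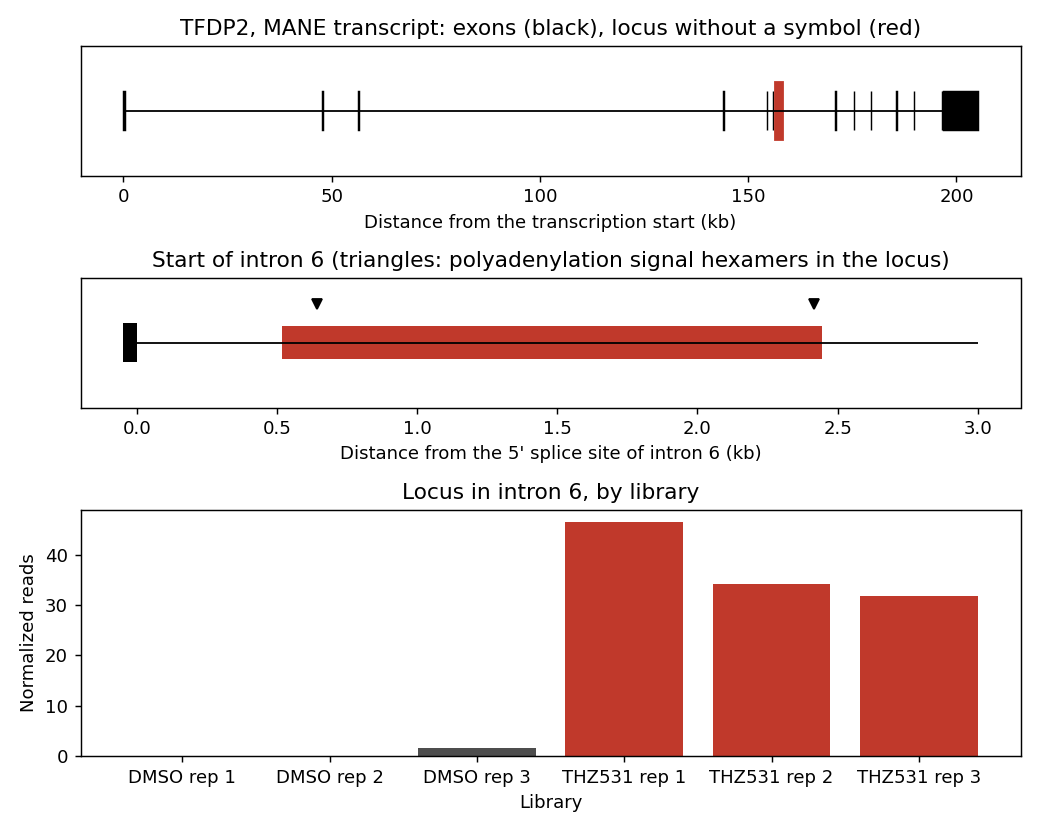
Map of TFDP2 by distance from its transcription start (top, kb, exons in black), the start of intron 6 by distance from its 5′ splice site (middle, kb, triangles at the polyadenylation signals in the locus), and normalized reads of the intronic locus, in red in both maps, by library (bottom). The locus holds 46.6, 34.1 and 31.9 normalized reads in THZ531 and at most 1.596 in DMSO.

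Genes around the family were then examined by role. E2F4 and E2F5 form the DREAM repressor of resting cells with p107 or p130 and the MuvB complex. A wider list, of all pocket proteins, the MuvB complex, MYBL2 and FOXM1, had 3 of 10 genes called, all lower. That was 30.0%, compared with 39.5% of all expressed loci (23.9% lower). The median log2 fold change was -0.14, compared with -0.01 over all expressed loci. RB1, which encodes the retinoblastoma protein, had 1811, 1846.5 and 2005 normalized reads in DMSO and 971, 1080 and 1069 in THZ531. RB1 fell in all THZ531 libraries, by 0.86 on the log2 scale (limma, adjusted p = 7.9e-09).

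The other pocket proteins did not pass the thresholds with the deposited scaling. RBL1 (p107) had a log2 fold change of -0.13 (limma, adjusted p = 0.077), and RBL2 (p130) had 0.11, which turned to -0.13 (same total) and -0.38 (RPL34). With RPL34, RBL1 was called lower, at -0.63 (limma, unadjusted p = 3.4e-06). In the MuvB core, LIN52, whose phosphorylation assembles DREAM, had 1021, 920 and 1083 normalized reads in DMSO and 463.5, 486.5 and 432 in THZ531. It fell by 1.13 on the log2 scale (limma, adjusted p = 8.7e-09). LIN37 fell by 0.76 (limma, adjusted p = 3.0e-04) from 526, 403 and 322 to 230.5, 244 and 249. Without DMSO replicate 1, the highest library, its log2 fold change was -0.58 and the call was lost.

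Subunits of PRC1.6, the complex of E2F6, moved in both directions, with 2 genes called higher and 2 lower of 10, and a median of 0.30. The share called was 40.0%, near the 39.5% of expressed loci. L3MBTL2, a chromatin-binding subunit, had 1928, 1925 and 1887 normalized reads in DMSO and 700.3, 688 and 706.5 in THZ531. Its log2 fold change was -1.45 (limma, adjusted p = 8.0e-12). RING1, an E3 ligase for histone H2A, fell by 1.12 (limma, adjusted p = 3.2e-09), from 1361, 1252 and 1191 to 611, 598 and 538. RYBP, which stimulates that ligase activity, rose by 1.10 (limma, adjusted p = 1.6e-10), from 1507, 1436 and 1666 to 3389, 3357 and 3146. RNF2, the other E3 ligase, was called at 0.61 (limma, adjusted p = 1.0e-07), just past the threshold. It had 1304, 1294 and 1421 in DMSO and 2048, 2060 and 2011 in THZ531, so that the groups were far apart. The call of RNF2 was lost without DMSO replicate 2 (0.58), with edgeR (0.58), with the same total (0.36) and with RPL34 (0.11). It held when the libraries were scaled to their upper quartile (0.586).

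Kinases of the pocket proteins and their inhibitors had 4 of 15 genes called, 3 higher and 1 lower, with a median of 0.08. That was 26.7% called, against 39.5% of expressed loci. CDK6, a cyclin D-dependent kinase, had 19618, 20675 and 23133 normalized reads in DMSO and 8443.5, 8816 and 9391.5 in THZ531. It fell by 1.25 on the log2 scale (limma, adjusted p = 1.1e-11). The 3 genes called higher all encode inhibitors, but the other inhibitors of the list were not called. Of these, CDKN1B (-0.22) and CDKN2B (-0.15) were lower, CDKN2C was at 0.04 and CDKN2A at 0.35. CDKN1C (p57) rose by 2.03 (limma, adjusted p = 8.4e-10), from 207, 204 and 148 to 753, 765 and 745. CDKN2D (p19) rose by 1.53 (limma, adjusted p = 3.2e-09), from 269.9, 227 and 283 to 807, 698 and 754. CDKN1A (p21), a target of p53, rose by 0.95 (limma, adjusted p = 1.3e-07), from 370.0, 367 and 425 to 713, 768 and 770.2. With RPL34 as reference CDKN1A was under the fold threshold, at 0.46. Under that scaling 2 genes of the list were called higher and 4 lower, with a median of -0.42.

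CCNE1 had 7495, 7622 and 8059.5 normalized reads in DMSO and 8699, 8258 and 8660.0 in THZ531. The THZ531 libraries were all higher, but the log2 fold change of 0.15 (limma, adjusted p = 0.0047) was under the fold threshold, and it turned to -0.10 (same total) and -0.35 (RPL34).

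Genes of E2F turnover, which encode ubiquitin ligase subunits that act on E2F proteins, had 2 called higher and 2 lower of 7, with a median of -0.00. In this short list 57.1% were called, against 39.5% of expressed loci. CUL1, the cullin scaffold of the SCF ligase, had 6463, 6176 and 6753 normalized reads in DMSO and 2175, 2254 and 2436 in THZ531, and fell by 1.498 on the log2 scale (limma, adjusted p = 1.1e-12). CCNF, the F-box protein cyclin F, fell by 0.65 (limma, adjusted p = 3.1e-07), from 1477 ± 68.3 to 943 ± 53.7 normalized reads (SD, n = 3). SKP1, the SCF adaptor, had 14381.5, 13969 and 14194.5 in DMSO and 23045, 22897 and 22661 in THZ531. Its log2 fold change was 0.69 (limma, adjusted p = 3.1e-11). SKP2, an F-box protein, had 3058, 2846 and 2929.9 in DMSO and 4652.5, 4637 and 4358 in THZ531, with a log2 fold change of 0.63 (limma, adjusted p = 6.6e-09). SKP1 and SKP2 were under the fold threshold when scaled to the same total, at 0.45 and 0.38, and to RPL34, at 0.20 and 0.13.

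Target genes of E2F at the G1/S transition encode the replication machinery and its nucleotide supply. Of 38 such genes 8 were called, 5 higher and 3 lower, and 30 were not, so that 21.1% were called against 39.5% of expressed loci. Their median log2 fold change was 0.21, and 30 of 38 were above 0, but scaling to the same total gave a median of -0.03 and RPL34 gave -0.28, where 0 were called higher and 7 lower. A word of the E2F consensus was present in the promoter windows of 20 of the 33 target genes that were matched, that is in 22 of 49 windows (44.9%).

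GINS1, a subunit of the replicative helicase, had 1949.8, 2249 and 2100.1 normalized reads in DMSO and 391.7, 385 and 407 in THZ531, a difference of -2.41 on the log2 scale (limma, adjusted p = 3.2e-13). BRCA1, a homologous recombination gene, fell by 1.94 (limma, adjusted p = 1.5e-10), from 672, 742 and 725 to 176, 183 and 197. POLA2, a subunit of DNA polymerase alpha, fell by 1.75 (limma, adjusted p = 7.6e-11), from 1111, 1094 and 1002 to 293.5, 336.5 and 325. In these 3 genes every THZ531 library lay far below DMSO.

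CDC25A, the phosphatase that activates CDK2, had 1332, 1418 and 1215 normalized reads in DMSO and 2437, 2556 and 2445 in THZ531, a difference of 0.91 on the log2 scale (limma, adjusted p = 2.1e-09). RFC3, a clamp loader subunit, rose by 0.88 (limma, adjusted p = 1.1e-09), from 1495, 1523 and 1402 to 2848, 2666 and 2605. PCNA, the sliding clamp, rose by 0.86 (limma, adjusted p = 1.4e-11), from 6250.4, 6106 and 6051 to 11464, 10908 and 10990.0. EZH2, a histone methyltransferase, and MCM2, a helicase subunit, were also called higher, at 0.83 and 0.75 (limma, adjusted p = 6.3e-11 and 1.2e-11). All 5 were under the fold threshold with RPL34, and MCM2 also with the same total.

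**Figure D4:**
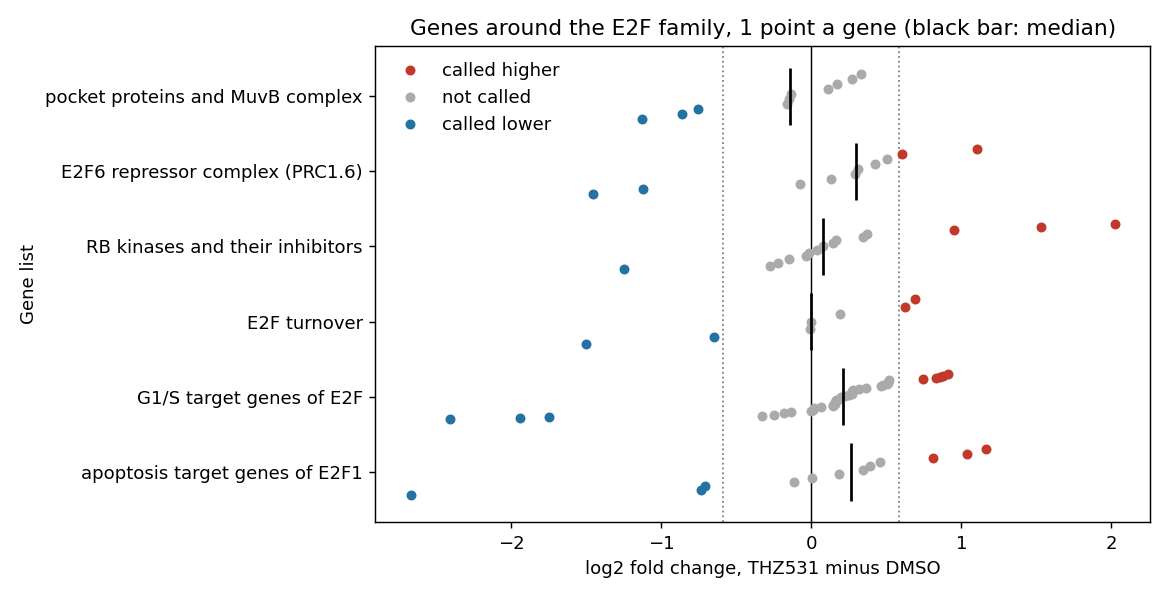
Log2 fold change (THZ531 minus DMSO) of each gene in 6 lists around the E2F family, with genes called higher in red, called lower in blue and not called in grey, a black bar at the median of the list and dotted lines at 1.5-fold. Most of the 38 G1/S target genes lie between the dotted lines, and GINS1, BRCA1 and POLA2 lie far to the left.

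Apoptosis genes known as targets of E2F1 had 3 called higher and 3 lower of 12, with a median of 0.27. In this short list 6 of 12 genes were called, whereas 39.5% of expressed loci were, and the median of all expressed loci was -0.01. The median of the list depended on the scaling, at 0.025 with the same total and -0.23 with RPL34. With RPL34, 1 gene of the list was called higher and 4 lower. TP73, which encodes the p53 relative p73, had 117, 106 and 128.5 normalized reads in DMSO and 16.4, 15.9 and 20.48 in THZ531, a difference of -2.67 on the log2 scale (limma, adjusted p = 3.2e-07). The THZ531 values came from 13, 14 and 18 reads, and the difference was -2.20 with a pseudocount of 10. HRK, a BH3-only gene, fell by 0.74 (limma, adjusted p = 0.01), from 82.6, 80.7 and 81.4 to 50.4, 45.5 and 50.1.

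The genes called higher were also pro-apoptotic. BCL2L11 (BIM) rose by 1.16 (limma, adjusted p = 4.4e-12), from 2486.5, 2689 and 2488 normalized reads to 5771, 5687 and 5683. BBC3 (PUMA) rose by 1.04 (limma, adjusted p = 6.4e-06), from 145, 167 and 132 to 292, 297 and 324. TP53BP2, which encodes the p53-binding protein ASPP2, rose by 0.81 (limma, adjusted p = 3.8e-11), from 4638, 4699.8 and 4556 to 8334, 8069 and 7985. With RPL34, BBC3 (0.55) and TP53BP2 (0.32) were under the fold threshold, and TP53BP2 also with the same total (0.57).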

How the data were processed

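PolyA plus libraries (150 bp paired-end) of OVCAR3 cells were mapped by the authors to hg38 with STAR (2.7.5a in the submitters' processing notes), counted with featureCounts over FAST DB genes, and normalized with DESeq2. The deposited values are a signal per gene, that is, reads over the library's size factor, with no correction for gene length. Whole reads could be recovered from 100% of the values of every library (tolerance of 0.1 reads).

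Loci with at least 10 normalized reads in at least 3 libraries were tested with limma 3.58.1 (trended, two-sided) in R 4.3.3 on log2(value + 1), without covariates, and Benjamini-Hochberg adjusted p-values cover all 17568 loci. The whole recovered reads were tested with edgeR 4.0.16 (quasi-likelihood, 6863 loci called) and DESeq2 1.42.0 (6788 loci called). The procedures were tested on simulated data. Further settings were pseudocounts of 0.1 and 10, no minimum and a minimum of 50, 3 other scalings, a replicate block, the adjusted p and leaving out each library. Exonic lengths are those of MANE transcripts in GENCODE v44, and promoters are those of RefSeq.

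Members and gene lists were chosen with earlier results of these data known. The text names all members, every called gene of a list (values per library for at most 3 in each direction), RB1, RBL1, RBL2, CCNE1, expressed loci that overlap a member, the 5 loci nearest to E2F5 in profile, RPL34, PAX8, CDK12 and CDK13. COL1A1, COL1A2, VWF, CD3E, CD14, PTPRC, PECAM1, DCN, LUM, CDKN1B, CDKN2A, CDKN2B, CDKN2C, TFDP3 and the genes under other observations were named after their values were seen. The E2F5 and E2F8 promoters were not analysed here, and 1 called gene of a list is not reported here.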

Additional observations from a re-analysis of the deposited data

How the results depend on the processing

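The count of 6948 called loci (2751 higher, 4197 lower) was between 5541 and 8602 over all alternatives and between 6714 and 6910 when single libraries were left out. Calls split into 1647 higher and 5615 lower (32.0% of expressed loci) with the same total, and into 1078 and 7524 (42.8%) with RPL34. Members lower by 1.5-fold or more numbered 3, and 5 with the same total and 7 with RPL34. E2F turnover genes called numbered 4, and 2 under each of these scalings. Genes called in the list of pocket proteins and MuvB numbered 3, and 6 with RPL34, RBL1 among them. Reversed with the same total were TFDP2 (-0.092), RBL2 (-0.13), CCNE1 (-0.10) and RBIS (-0.019), and with RPL34 TFDP2 (-0.34), E2F6 (-0.25), RBL2 (-0.38), CCNE1 (-0.35) and RBIS (-0.27). Both scalings lower every THZ531 value by construction. Under the other alternatives all 133 values of counts stayed within 1.5 times the main count, and of the named list genes and overlapping loci LIN37 and RNF2 lost their calls.

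Replicate numbers did not pair the samples (correlation of deviations 0.00168, 0.0186 and -0.0393 for equal numbers), and the replicate block left 6918 loci called and changed no call of the named list genes and overlapping loci for which it was run. Depth limits E2F5 (13 to 22 reads) and TP73 (13 to 18 reads) in THZ531 and the TFDP2 intron locus in DMSO (0 to 2 reads).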

Other observations

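A few loci tied to E2F by name or function were picked after their values were seen and are given as values only. EMSLR, a long noncoding RNA named for stabilizing E2F1 mRNA, had 293, 332 and 268 normalized reads in DMSO and 183, 172 and 139 in THZ531. The log2 fold change was -0.86. EAPP, which encodes an E2F-associated phosphoprotein, had a log2 fold change of -0.25.

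E2F5-DT, the divergent transcript upstream of E2F5, was below the minimum for expression. It had 1, 2 and 0 reads in DMSO and 12, 3 and 3 reads in THZ531, a normalized ratio of 8.44 from very few reads. Most of the reads were in THZ531 replicate 1, and no test was made.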
